A study of Mus musculus with 4 samples.

Results

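The Zfp genes of the mouse were followed in the lungs of bleomycin-treated mice. A Zfp gene was any gene whose probes carried a single platform gene symbol made of Zfp and a number, and the Zfp36 family was kept apart. The table held 174 such probes for 156 genes. A log ratio on at least 3 of 4 arrays was required, which left 91 genes, namely 90 Zfp genes and Zfp36, out of 8384 genes tested and 13410 gene symbols with a probe. Each array was a 2-colour comparison of the lung of 1 bleomycin-treated A/J mouse (n = 4 mice, numbered 1 to 4) with a pool of control A/J lungs that was shared by all arrays (1 pool), both as amplified RNA. A/J is an inbred mouse strain, and bleomycin is a drug that breaks DNA and is given to animals to cause lung injury and scarring. The sources used here do not state dose, route, time after treatment, age or how many mice went into the pool.

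A value was the log ratio between treated lung and pool, centred on each array's median. Which of the 2 is on top of the ratio is not stated, so each gene is described as above or below 0, and all signs turn round if it was the pool. The base was read as 2, and if the natural logarithm was used, every size grows by a factor of 1.44. A ratio gives no level: neither the abundance of a gene nor a check of the tissue by marker levels can be had, and fewer cells of a type cannot be told apart from less RNA per cell. Between 9427 and 12136 of 17280 spots had a value per array. The test was limma's moderated test of the mean against 0 over all 8384 genes, with Benjamini-Hochberg adjustment and a threshold of 0.05. Only variation among the treated mice enters its p-values, since there was a single control pool. The arrays of mice 1 and 2 resembled each other, as did those of mice 3 and 4 (Pearson's r over all genes tested 0.715 and 0.855, and 0.431 to 0.558 between these pairs), a description across genes that share 1 pool. Genes of other tissues differed between the mice: the median of 7 striated muscle markers was -1.64, 0.07, -2.32 and -0.89 in mice 1 to 4, with 2 of 7 past the test below 0, and that of 4 fat cell markers was -1.95, -0.12, -2.81 and -2.12, with 3 of 4 below. Of 5 leukocyte markers 2 passed below 0, of 7 markers of lung epithelium 2 passed above and 1 below, and of 2 endothelial markers 2 passed above. Over all genes tested, 7.69% passed above 0 and 4.81% below. The 3 calls among fat markers (Cidea, Adipoq and Plin4) were lost without mouse 1, 3 or 4 and with the pairs of mice as a random block (limma adjusted p 0.0743, 0.0866 and 0.0505 under the block). In these settings the epithelial genes Aqp5 and Cbr2 were lost too (0.0813 and 0.0956 under the block), Aqp5 also without mouse 2, and Sftpa1 remained. Without mouse 4 the endothelial gene Pecam1 and the neutrophil gene S100a9 were lost (limma adjusted p = 0.0652 and 0.0502). The part of these in the values of the Zfp genes was not tested.

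Most proteins encoded by Zfp genes carry C2H2 zinc fingers, small folds in which a pair of cysteines and a pair of histidines hold a zinc ion, and arrays of such fingers read DNA sequence. Many also have a KRAB domain, which recruits the corepressor Trim28 and, through it, the histone methyltransferase Setdb1, and this machinery silences transposable elements as well as genes. Others act on RNA, ribosomes or the mitotic spindle. The Zfp36 family is of another kind: its CCCH fingers bind AU-rich elements in mRNA and bring in the deadenylation machinery, so that the mRNA of inflammatory mediators is degraded.

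The Zfp genes lay slightly above 0 as a set, and those that passed the test were all above 0, led by Zfp281, Zfp91, Zfp706 and Zfp263. Of 90 Zfp genes, 8 passed above 0 (8.89%, against 7.69% of all genes tested) and 0 below (against 4.81% of all genes). On both sides together, 12.5% of all genes passed, so the count of Zfp genes was near the background and is no result about them. At an unadjusted limma p under 0.05 there were 28 Zfp genes above 0 and 2 below (31.1% and 2.22%), against 18% and 13.8% of all genes. The mean was above 0 for 60 of 90 Zfp genes (66.7%) and for 50.2% of all genes. A total of 32 Zfp genes were above 0 on every array with a value (35.6%, against 24.3% of all genes), and 5 were below 0 on every such array (5.56%, against 22.3%). Only Zfp281 exceeded 2-fold on every array (1 of 90, against 0.37% of all genes above 0). Taken probe by probe, 9 of 96 Zfp probes passed above 0 and 0 below, against 8.09% and 4.75% of all 9909 probes tested and 12.8% on both sides together. They were the probes of these 8 genes and 1 of the 2 probes of Zfp101.

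**Figure D1:**
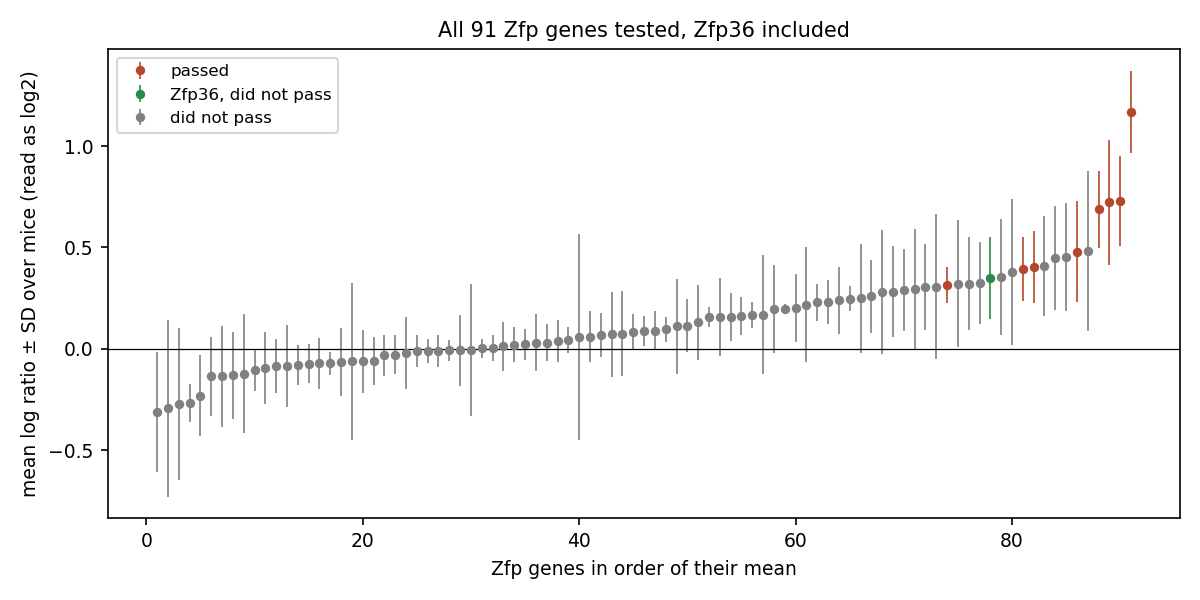
Mean log ratio (read as log2, vertical axis) of all 91 genes tested, Zfp36 included, in order of their mean; points are means and bars are SD over 3 or 4 mice. The 8 genes that passed are all above 0, and Zfp281 at 1.17 stands alone at the upper end.

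The median of the means was 0.087 over the Zfp genes and 0.002 over all genes tested. By mouse, the median Zfp gene was at 0.141, 0.114, 0.062 and 0.062 in mice 1 to 4 (85, 85, 80 and 82 genes), and the median of all genes tested between -0.001 and 0.012. The share of Zfp genes above 0 was 78.8%, 68.2%, 60% and 63.4% in the 4 mice, against 49.7% to 52.0% of all genes. All 4 arrays thus had the Zfp median above 0, mouse 1 with the highest. No test was made of the set, whose members are not replicates. Few Zfp genes lay far below 0: the first quartile was -0.028 for Zfp genes and -0.141 for all genes, the lowest means were -0.31 and -4.90, while the upper decile started at 0.405 and 0.410. The size of the mean had a median of 0.137 for Zfp genes and 0.155 for all genes, and the SD over mice one of 0.176 and 0.169.

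**Figure D2:**
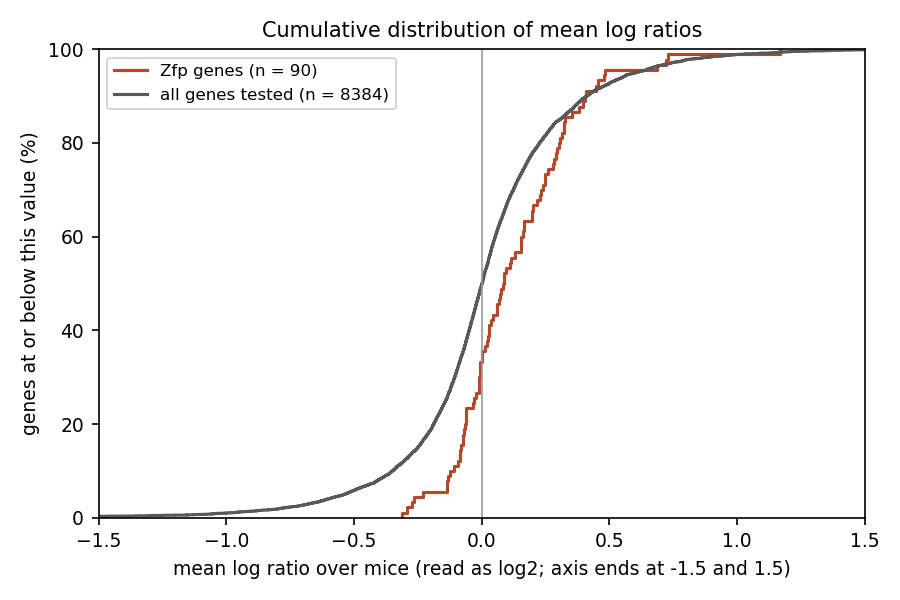
Share of genes (percent, vertical axis) at or below each mean log ratio (read as log2, horizontal axis, ending at -1.5 and 1.5) for the 90 Zfp genes and all 8384 genes tested. The curve of the Zfp genes lies to the right below 0, with 33.3% of them at or below 0.

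Zfp281 had the largest size of all Zfp genes. It encodes a C2H2 transcription factor known from embryonic stem cells and from the epithelial-mesenchymal transition. Its log ratios were 1.06, 1.48, 1.07 and 1.07 in mice 1 to 4. The values of mice 1, 3 and 4 almost coincided and that of mouse 2 was higher. The mean was 1.17 ± 0.20 (SD, n = 4), a 2.25-fold difference (limma adjusted p = 0.00653), and the gene passed whichever mouse was left out.

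Zfp91, which encodes a zinc finger protein described as a ubiquitin ligase in NF-kappaB signalling, had 0.98, 0.62 and 0.58 in mice 1 to 3 and no value in mouse 4. Its mean of 0.73 ± 0.22 (SD, n = 3; limma adjusted p = 0.0257) equals a 1.66-fold difference. Zfp706 encodes a small protein that acts against Klf4 in mouse embryonic stem cells as they leave self-renewal, and had 0.96, 0.27, 0.87 and 0.78. Mouse 2 was low and the other 3 mice lay close together, with a mean of 0.72 ± 0.31 (SD, n = 4; limma adjusted p = 0.0249). Zfp263, whose protein carries a SCAN and a KRAB domain next to its fingers, had 0.60, 0.50, 0.94 and 0.70. Its mean was 0.69 ± 0.19 (SD, n = 4), a 1.61-fold difference (limma adjusted p = 0.0132). Without mouse 4, Zfp263 no longer passed (limma adjusted p = 0.0524), Zfp706 was lost without mouse 1, 3 or 4 (up to 0.0826) and Zfp91 without mouse 1, 2 or 3 (up to 0.0703).

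The remaining genes that passed were closer to 0. Zfp410, a factor known for its narrow set of targets, chiefly the chromatin remodeler gene Chd4, had 0.73, 0.23, 0.66 and 0.30, higher in mice 1 and 3 than in mice 2 and 4. Its mean was 0.48 ± 0.25 (SD, n = 4; limma adjusted p = 0.0432). The KRAB finger genes Zfp51 and Zfp790 had means of 0.40 ± 0.18 and 0.39 ± 0.16 (SD, n = 4; limma adjusted p = 0.0408 and 0.0373). Zfp51 had 0.47, 0.51, 0.50 and 0.14, and Zfp790 0.45, 0.54, 0.42 and 0.17. In both genes mouse 4 was the lowest and the other 3 lay together. Zfp512 had the smallest size of the 8 and the smallest spread, with 0.22, 0.27, 0.41 and 0.37 and a mean of 0.31 ± 0.09 (SD, n = 4; limma adjusted p = 0.0395). Leaving out any 1 mouse ended the calls of Zfp410, Zfp790 and Zfp512, and Zfp51 was lost without mouse 1, 2 or 3 (limma adjusted p as high as 0.129). With the pairs of mice 1 and 2 and of mice 3 and 4 as a random block, Zfp281 and Zfp263 passed and the other 6 were lost.

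**Figure D3:**
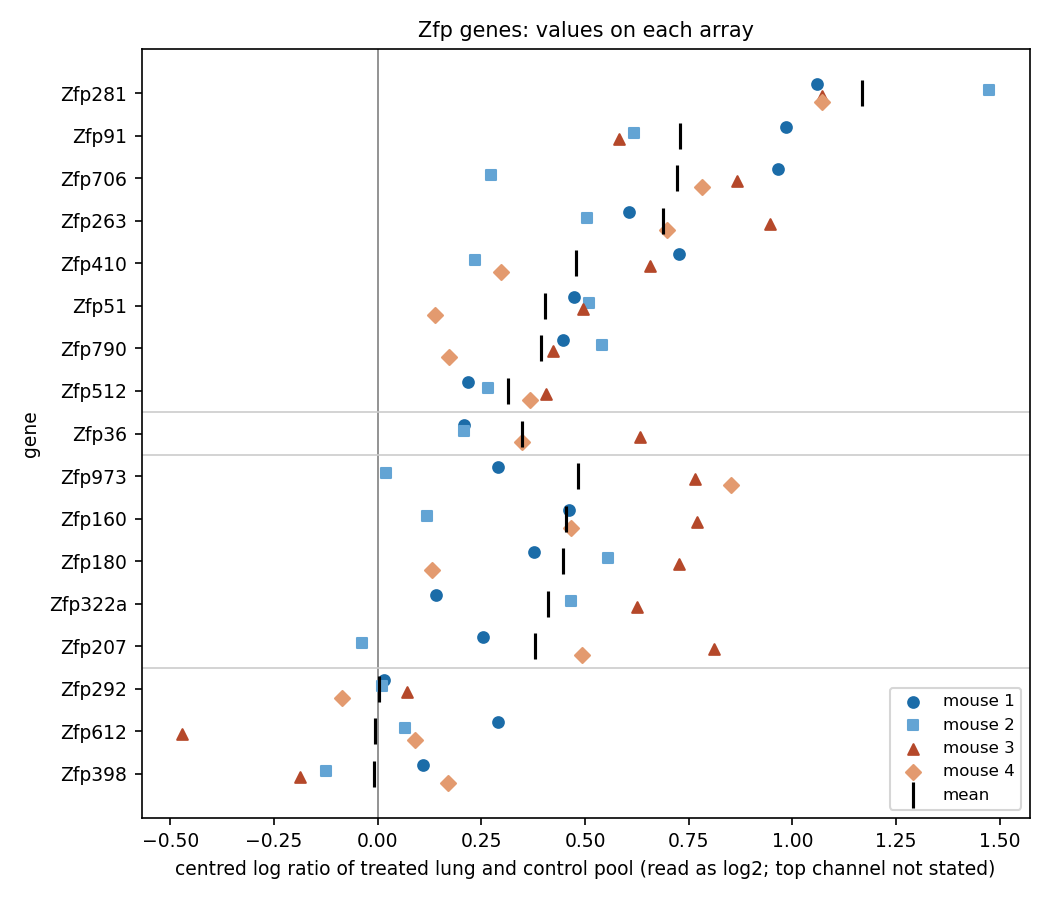
Centred log ratio (read as log2, horizontal axis) of each mouse for the 8 genes that passed, Zfp36, the 5 largest that did not pass and the 3 nearest 0 with 4 values; symbols are single mice and the vertical bar is their mean. All 4 values of Zfp281 lie above 1, and those of Zfp36 lie between 0.21 and 0.63.

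Promoter windows from RefSeq (GRCm38.p6), which run from 250 bases before to 50 bases after a gene's start, were available for 130 of the 156 genes and 5 of the 8 that passed. Shown here, 5′ to 3′ on the gene's strand, are those of the 3 genes with the largest means that had a window, of Zfp36, and of Chd4 as the known target of Zfp410. Capitals mark matches on either strand to the GC box GGGCGG, the ETS core CCGGAAG, the EGR1 site GCGGGGGCG and the core TCCCATAAT of the Zfp410 site. The windows are chr1:136624651-136624950 (+ strand), chr16:3743849-3744148 (+ strand), chr19:12796074-12796373 (- strand), chr7:28379179-28379478 (- strand) and chr6:125095731-125096030 (+ strand).
Zfp281: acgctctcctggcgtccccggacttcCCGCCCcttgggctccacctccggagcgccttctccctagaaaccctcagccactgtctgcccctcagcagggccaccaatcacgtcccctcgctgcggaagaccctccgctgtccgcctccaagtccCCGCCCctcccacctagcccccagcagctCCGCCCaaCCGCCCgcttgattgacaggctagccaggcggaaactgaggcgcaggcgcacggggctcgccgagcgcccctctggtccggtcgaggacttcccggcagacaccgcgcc
Zfp263: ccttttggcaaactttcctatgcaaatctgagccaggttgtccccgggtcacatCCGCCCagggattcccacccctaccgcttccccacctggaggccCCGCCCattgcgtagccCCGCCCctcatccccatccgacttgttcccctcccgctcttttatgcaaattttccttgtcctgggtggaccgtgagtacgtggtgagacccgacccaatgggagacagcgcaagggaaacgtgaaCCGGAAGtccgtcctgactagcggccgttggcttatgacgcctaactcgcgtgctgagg
Zfp91: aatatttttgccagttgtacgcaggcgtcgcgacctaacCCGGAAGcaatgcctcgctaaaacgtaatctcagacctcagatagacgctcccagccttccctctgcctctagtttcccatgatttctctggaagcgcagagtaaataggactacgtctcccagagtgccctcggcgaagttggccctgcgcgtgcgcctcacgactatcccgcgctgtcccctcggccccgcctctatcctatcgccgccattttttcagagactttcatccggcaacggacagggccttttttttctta
Zfp36: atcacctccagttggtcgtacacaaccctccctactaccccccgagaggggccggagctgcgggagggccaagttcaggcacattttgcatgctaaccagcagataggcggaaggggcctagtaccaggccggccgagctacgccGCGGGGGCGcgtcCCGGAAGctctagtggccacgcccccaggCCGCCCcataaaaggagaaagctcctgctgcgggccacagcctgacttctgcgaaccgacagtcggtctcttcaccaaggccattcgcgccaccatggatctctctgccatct
Chd4: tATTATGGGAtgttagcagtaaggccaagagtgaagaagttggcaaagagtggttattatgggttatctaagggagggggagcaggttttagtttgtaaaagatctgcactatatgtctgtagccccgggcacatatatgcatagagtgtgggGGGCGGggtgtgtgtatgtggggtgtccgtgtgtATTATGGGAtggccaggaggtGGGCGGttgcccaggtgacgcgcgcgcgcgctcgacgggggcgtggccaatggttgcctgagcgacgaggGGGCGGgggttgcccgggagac

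The Zfp281 window held 4 GC boxes and no ETS core, that of Zfp263 held 3 GC boxes and 1 ETS core, and that of Zfp91 held 1 ETS core and no GC box. Over the 100 windows of 81 genes tested, Zfp36 included, 54% held the GC box and 21% the ETS core. The shares were 35.7% and 8.86% of all 32851 windows of that length, which include those of noncoding genes. The Zfp36 window held all of the GC box, ETS core and EGR1 site, 1 match each. The EGR1 site stood in 6% of these 100 windows, that of Zfp36 included, and in 2.91% of all. The heat shock element, as 3 alternating units on either strand, was in 0 of the 100 Zfp windows and in 0.603% of all. None of these motifs overlapped another in the windows shown. A match is a description of letters and not of binding.

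Chd4, the remodeler subunit of the NuRD complex, had 2 windows, of which the one with the lower start coordinate is shown. That window carried 2 copies of the Zfp410 core, while 0.201% of all windows held at least 1. Matches in the other Chd4 window are not given here. The log ratios of Chd4 were -0.13, 0.06, -0.43 and -0.48 in mice 1 to 4, against 0.73, 0.23, 0.66 and 0.30 for Zfp410. The mean of Chd4, -0.25 ± 0.25 (SD, n = 4), was not past the threshold (limma adjusted p = 0.185). The difference between these genes was not tested.

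Among the Zfp genes that did not pass, the largest sizes were again above 0. Zfp973 had 0.29, 0.02, 0.77 and 0.85 (mean 0.48 ± 0.40, SD, n = 4; limma adjusted p = 0.0961), with mice 3 and 4 above mice 1 and 2. Zfp160 and Zfp180 had means of 0.45 ± 0.27 and 0.45 ± 0.26 (SD, n = 4; limma adjusted p = 0.0531 and 0.0521), and were above 0 in every mouse. Zfp322a had 0.14, 0.46 and 0.62 in mice 1 to 3 (mean 0.41 ± 0.25, SD, n = 3; limma adjusted p = 0.0913). Of the genes with 4 values, the 3 nearest 0 were Zfp292, Zfp612 and Zfp398. Zfp292 stayed within 0.09 of 0 in every mouse, with 0.02, 0.01, 0.07 and -0.09. Zfp612 reached a mean of -0.01 from unlike values, 0.29, 0.07, -0.47 and 0.09, and Zfp398 likewise from 0.11, -0.12, -0.19 and 0.17. Among genes with 4 values, the lowest means, named after their values were seen, were those of Zfp959 with -0.31 ± 0.30, Zfp28 with -0.29 ± 0.44 and Zfp433 with -0.27 ± 0.09 (SD, n = 4; limma adjusted p = 0.147, 0.283 and 0.0573). Zfp433 was below 0 on every array, with -0.19, -0.18, -0.35 and -0.34, whereas Zfp959 was at 0.11 in mouse 1 and Zfp28 at 0.21 in mouse 2. Zfp316, with -0.05, -0.07 and -0.71 in mice 1 to 3, had a mean of -0.27 that rested largely on mouse 3 (limma adjusted p = 0.303).

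By what the proteins are known to do, the genes were put in groups after the values were seen, and no test was made of these groups. Of all genes tested, 7.69% passed above 0 and 4.81% below, and 31.8% were at an unadjusted limma p under 0.05. Of 18 genes chosen as carriers of a KRAB or SCAN domain, 3 passed above 0 and 0 below. Their means ran from -0.29 (Zfp28) to 0.69 (Zfp263), with a median of 0.075. Domains were not counted from sequence, so other Zfp genes with such a domain can be missing from these 18. Zfp57, which keeps imprinted loci methylated together with Trim28, had 0.18, -0.02, 0.38 and 0.25 and did not pass (limma adjusted p = 0.168). Of 6 genes with roles in RNA, ribosomes or the spindle, 0 passed, and 1, Zfp207, was at an unadjusted p under 0.05. Zfp207, whose protein helps to load the checkpoint protein Bub3 on kinetochores, had 0.25, -0.04, 0.81 and 0.49 (mean 0.38 ± 0.36, SD, n = 4; limma adjusted p = 0.136). Zfp638, which in human cells takes part in the silencing of unintegrated retroviral DNA, had 0.79, 0.37, 0.02 and 0.06 (mean 0.31 ± 0.36, SD, n = 4; limma adjusted p = 0.196). Those 2 genes thus ran opposite ways between the pairs of mice. Zfp622, a factor of large ribosomal subunit maturation, was at 0.24, 0.24, 0.08 and 0.08, and Zfp326, part of a complex that links transcript elongation to splicing, at 0.15, 0.09, -0.08 and -0.24. Of 6 regulators of stem and progenitor cells, Zfp281 and Zfp706 passed. Zfp521, a cofactor of early blood and mesenchymal cells, had 0.29, 0.50, 0.01 and 0.36 (mean 0.29 ± 0.20, SD, n = 4; limma adjusted p = 0.0985), and Zfp503, a developmental repressor, 0.01, 0.03, -0.43 and -0.14 (mean -0.13 ± 0.21, SD, n = 4; limma adjusted p = 0.394).

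More Zfp genes were higher in mice 1 and 2 than in mice 3 and 4 than the other way round. Of 62 Zfp genes with 4 values, 23 had both mice 1 and 2 above both mice 3 and 4 (37.1%, against 22.5% of all genes with 4 values), and 14 had the opposite order (22.6%, against 31.9%). The 23 had the widest gap in Zfp28, with -0.12, 0.21, -0.80 and -0.47 in mice 1 to 4, averages of 2 probes whose means lay on both sides of 0. It was followed by Zfp110, whose protein binds the neurotrophin receptor p75, with 0.11, 0.40, -0.44 and -0.32. Zfp638, given above, came next, and then Zfp979 with 0.60 and 0.58 in mice 1 and 2 and 0.00 and 0.11 in mice 3 and 4. Of the 14, Zfp973 and Zfp207 had the widest gaps, then Zfp330 with 0.02, -0.13, 0.55 and 0.23. Among the 8 genes that passed, Zfp790 was in the 23 and Zfp263 and Zfp512 were in the 14. Across Zfp genes, Pearson's r was 0.625 between mice 1 and 2 (80 genes), 0.799 between mice 3 and 4 (72 genes), and 0.373 to 0.571 between mice of different pairs, a description across genes that share the pool. The labels give no batch, so a technical origin of the pairs was not tested.

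**Figure D4:**
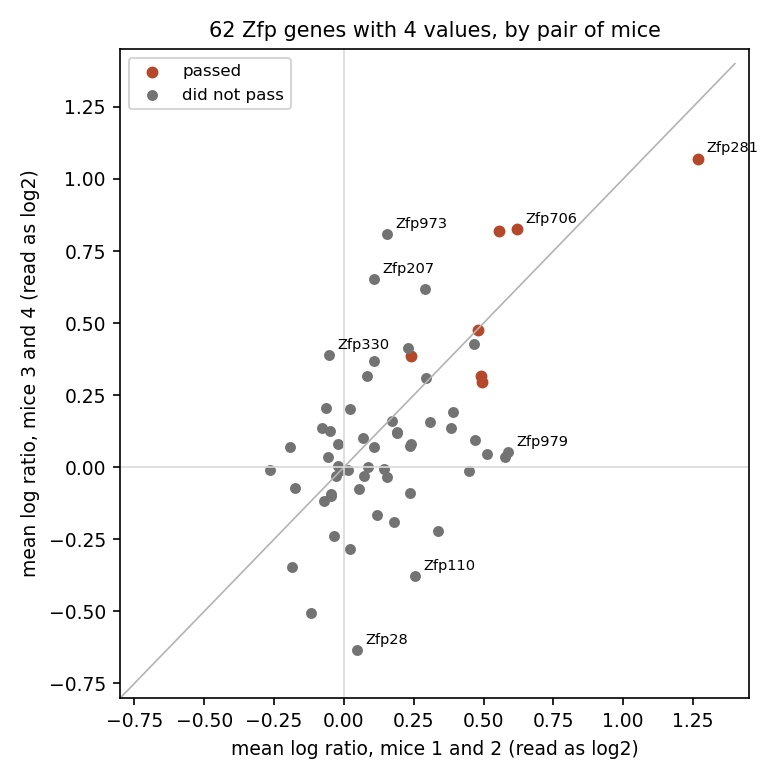
Mean log ratio (read as log2) of mice 1 and 2 (horizontal axis) and of mice 3 and 4 (vertical axis) for the 62 Zfp genes with 4 values; each point is a gene and the diagonal marks equal values. Zfp281 is high in both pairs, Zfp979 lies near 0 in mice 3 and 4, and Zfp973 lies well above the diagonal.

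Many Zfp genes stand side by side in the genome, where copies arose by duplication. By the order of protein-coding genes in RefSeq (GRCm38.p6), 30 of the 91 genes tested formed 12 runs in which at most 5 other genes lay between neighbours. In the 3 runs that held a gene past the test, none of its neighbours passed limma. Of these 5 neighbours 2, Zfp983 and Zfp74, were at an unadjusted limma p under 0.05, against 33.3% of Zfp genes and 31.8% of all genes. On chromosome 17, Zfp51 passed with a mean of 0.40 while its neighbours Zfp52 and Zfp983 had 0.02 and 0.23 and did not pass. The longest run, 5 genes on chromosome 7, had means of 0.45 for Zfp180, -0.11 for Zfp111, 0.11 for Zfp108, -0.09 for Zfp61 and 0.07 for Zfp94. In another run on chromosome 7, Zfp790 had 0.39, Zfp74 0.15 and Zfp566 0.04. Probe sequences were not analysed here, and signal shared between similar copies was not tested.

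Zfp36, which encodes tristetraprolin, was above 0 in every mouse but did not pass. Its log ratios were 0.21, 0.21, 0.63 and 0.35 in mice 1 to 4, lowest in mice 1 and 2. The mean was 0.35 ± 0.20 (SD, n = 4), a 1.27-fold difference (limma adjusted p = 0.0633), and its unadjusted p was under the threshold. The other family member with a probe, Zfp36l1, had no value on any array. No probe carried the symbols Zfp36l2 or Zfp36l3, which were not analysed here.

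A list of the deadenylation, decapping and exosome machinery also took in the poly(A)-binding protein gene Pabpc1. Of its 22 genes tested, 3 passed above 0 and 0 below, with a median of 0.005. Over all genes tested, the shares were 7.69% above and 4.81% below. Pabpc1, the cytoplasmic poly(A)-binding protein gene, had 1.64, 1.17, 2.52 and 2.26 (mean 1.90 ± 0.61, SD, n = 4; limma adjusted p = 0.0121). Pan2, the catalytic subunit of a poly(A) nuclease, had 0.65, 0.67, 0.84 and 0.91 (mean 0.77 ± 0.13, SD, n = 4; limma adjusted p = 0.00753). Cnot11, a subunit of the CCR4-NOT deadenylase, had 0.67, 0.58 and 0.71 in mice 2 to 4 (limma adjusted p = 0.0164), and was lost without mouse 2, 3 or 4 (up to 0.0761). Of 15 mRNAs described as Zfp36 targets, 0 passed limma, and the median was -0.086. At an unadjusted limma p under 0.05 there were 4 (Tnf, Csf2, Ccl3 and Mcl1, named after their values were seen), against 31.8% of all genes. Tnf, the best-known target, had -1.001, -0.940 and -0.104 in mice 1, 2 and 4 (limma adjusted p = 0.0954). Ccl3, a chemokine gene, had -1.41, -1.70, 0.06 and -0.25 (limma adjusted p = 0.141), and Cxcl1, another chemokine gene, -2.68, -2.92, 0.16 and 0.19 (limma adjusted p = 0.205). These 2 chemokine genes lay far below 0 in the first pair of mice (1 and 2) and close to 0 in the other. Csf2 was below 0 in every mouse, from -0.43 to -0.11, and Mcl1 above 0 in the 3 mice with a value, from 0.19 to 0.36. Of the other targets, Vegfa, Myc, Ier3 and Ptgs2 had means above 0. The means of Il6, Il10, Ifng, Ccnd1, Nos2 and Plau were below 0.

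Zfp36 is also an immediate early gene, one that growth factors and stress switch on within minutes. Of 16 immediate early genes tested, 3 passed above 0 and 0 below (against 7.69% and 4.81% of all genes), with a median of 0.196. Among those that did not pass, Junb and Jund were below 0 in every mouse (limma adjusted p = 0.0663 and 0.0573). Atf3, Ier5, Klf6 and Myc were above 0 in every mouse and did not pass either. Dusp1, a phosphatase of MAP kinases, had 1.62, 1.00, 1.25 and 0.73 (mean 1.15 ± 0.38, SD, n = 4; limma adjusted p = 0.0129). Klf4, a C2H2 transcription factor, had 1.61, 1.08, 1.13 and 0.75 (mean 1.14 ± 0.36, SD, n = 4; limma adjusted p = 0.0121). Both were highest in mouse 1 and lowest in mouse 4, while Zfp36 was highest in mouse 3. Btg2, an antiproliferative gene that also binds the deadenylase, had 0.57, 0.24, 0.58 and 0.71 (limma adjusted p = 0.0258) and was lost without mouse 1, 3 or 4 (up to 0.0845) and under the random block of mouse pairs (0.0562). Klf4 and Zfp706, described in stem cells as its repressor, were above 0 in all 4 mice.

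Of 10 genes of the KRAB corepressor machinery, 1 passed above 0 and 0 below (against 7.69% and 4.81% of all genes), with a median of 0.076. The gene that passed was Mphosph8, a subunit of the HUSH silencing complex, with 0.81, 0.29, 0.74 and 0.79 (mean 0.66 ± 0.25, SD, n = 4; limma adjusted p = 0.0213), lost without mouse 1, 3 or 4 (up to 0.0762) and under the random block of mouse pairs (0.0510). Trim28 itself had 0.49, 0.25, -0.03 and 0.45 (mean 0.29 ± 0.24, SD, n = 4; limma adjusted p = 0.124). Setdb1 had 0.21, 0.18, 0.82 and 0.48 (mean 0.42 ± 0.30, SD, n = 4; limma adjusted p = 0.0768), above 0 in every mouse and highest in mouse 3.

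Zinc finger genes under other symbols were counted in the same fit, in which 12.5% of all genes passed. Of 33 genes picked by the symbols of other C2H2 families, such as Zbtb and Zkscan, 2 passed above 0 and 0 below, with a median of 0.054. The symbol pattern also took in genes that are not of these families. They were Zbtb8os and Zbtb11os1, named for their places opposite Zbtb8 and Zbtb11, and Zfyve19 and Zfyve21. The count and median include them. Zkscan3, known as a repressor of autophagy genes, had 0.95, 0.89, 0.84 and 0.65 (mean 0.83 ± 0.13, SD, n = 4; limma adjusted p = 0.00711), and Zbtb8a 1.00, 0.44, 0.71 and 0.71 (limma adjusted p = 0.0157, or up to 0.0580 without mouse 3 or 4). Of 18 Klf, Sp and Egr genes, Klf4 and Klf17 passed above 0 and 0 passed below, with a median of 0.047. Klf17 had a mean of 0.41 ± 0.14 (SD, n = 4; limma adjusted p = 0.0309) and was lost whichever mouse was left out, at up to 0.0941, and under the random block (0.0741). Of 14 CCCH and CCHC finger genes, 1 passed on each side. Zcchc8, a subunit of a nuclear complex that feeds RNA to the exosome, had 0.55, 0.80, 0.61 and 0.52 (limma adjusted p = 0.0121). Zc3h13, a subunit of the m6A methyltransferase complex, had -0.38, -0.52, -1.10 and -0.74 (mean -0.68 ± 0.31, SD, n = 4; limma adjusted p = 0.0288), and was lost whichever mouse was left out (up to 0.0911) and under the random block (0.0537). No difference between these families and the Zfp genes was tested.

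**Figure D5:**
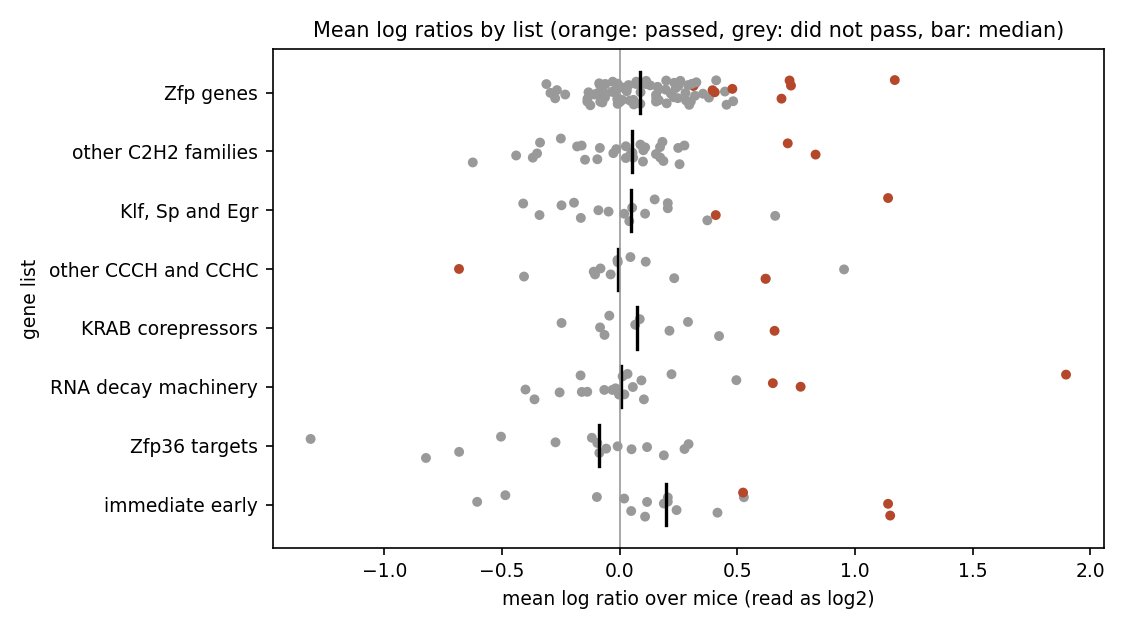
Mean log ratio over mice (read as log2, horizontal axis) of the Zfp genes and of 7 other gene lists (vertical axis); points are genes, orange where they passed, and the black bar is the list's median. The medians lie between -0.086 (Zfp36 targets) and 0.196 (immediate early genes), and Zc3h13 is the only gene shown that passed below 0.

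Of the other Zfp genes with a probe, 28 had 2 values, 14 had 1 and 22 had none, or 18.2%, 9.09% and 14.3% of 154. The shares over all gene symbols were 12.6%, 10.7% and 14.2%. These genes were not tested. Their 70 single values ran from -0.38 to 0.96, with a median of 0.032. The highest were those of Zfp119a, 0.68 and 0.96 in mice 1 and 2, followed by Zfp189 with 0.38 and 0.65 in the same mice. Zfp623 had 0.46 in mouse 1 and 0.39 in mouse 4, and the lowest value was that of Zfp934, -0.38 in mouse 1. The genes Zfp42 (Rex1), a marker of embryonic stem cells, and Zfp423, a regulator of fat cell commitment, stayed close to 0 in mice 1 and 2, at -0.06 and -0.16 and at 0.13 and -0.13.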

How the data were processed

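The authors deposited 1 log ratio per spot and array, read here as log2 by assumption, since the base is not stated. How the arrays were scanned, dyed, corrected for background and normalized is not stated in the labels, nor is the rule that left spots empty. Array medians before centring were -0.009, 0.015, 0.029 and 0.019. Signal is not in the table, so dim spots could not be judged, and values were filtered only by the number of arrays that had one.

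Probe names came from the platform's annotation, whose symbols may be out of date. Gene IDs of 155 of the 156 Zfp symbols matched RefSeq (GRCm38.p6), with 0 symbols changed. Each array was centred on its median, probes of a symbol were averaged, and genes with at least 3 values were kept. The mean was tested against 0 in an intercept model with limma 3.58.1 under R 4.3.3 (lmFit, then eBayes; two-sided) over 8384 genes or 9909 probes. The fit was tested on simulated data. Columns of other samples in the table numbered 0.

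The text names the Zfp36 family, the Zfp genes that passed, the 5 with the largest size among the rest, the 3 nearest 0 with 4 values, members of other lists that passed (up to 4 per list), and genes said to be named after their values were seen or given as examples of a role, a run or a pattern. Members and lists were chosen with earlier results of these data known. Alternatives changed the centring, scaling, missing-value filter, probe summary, variance prior and mice used, and set pairs of mice as a random block.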

Additional observations from a re-analysis of the deposited data

Results flagged for a closer look

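Of 63 Zfp genes with 4 values, Zfp36 included, 2 had 1 mouse far from the other 3 by Dixon's ratio, the gap to the nearest mouse as a share of the range; chance flags about 1 in 20. In Zfp281 the ratio was 0.971, from mouse 2 at 1.48 against 1.06, 1.07 and 1.07 in mice 1, 3 and 4. In Zfp51 it was 0.903, from mouse 4 at 0.14 against 0.47, 0.51 and 0.50 in mice 1 to 3.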

How the results depend on the processing

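With 3 mice the count of Zfp genes past limma ranged from 2 to 4 of 90 in place of 8, and that of Zfp probes from 2 to 5 in place of 9. The count over all genes fell too, to between 296 and 573 (3.53% to 6.83%) in place of 1048 (12.5%). With the pairs of mice as a random block, 2 Zfp genes and 3 Zfp probes passed, and 402 of all genes (4.79%). Over the other alternatives 8 to 10 Zfp genes passed, against 10.1% to 17.6% of all genes. Below 0, 0 Zfp genes passed in any of the 13 alternatives. The 8 genes that passed kept their sign in all 103 combinations of gene and alternative and were lost in 28. The median of the Zfp genes stayed between 0.065 and 0.098 in 11 alternatives. Zfp36 never passed in 13 alternatives, with means from 0.254 to 0.396 and adjusted p from 0.0501 to 0.166. Gene by gene, the alternatives were followed for Zfp36, the 8 that passed, those of largest size among the rest and the 3 nearest 0 with 4 values. Among these, means changed sign only in the 3 nearest 0. Zfp160 passed when only genes with 4 values were kept, without mouse 2 and with scaled arrays. Zfp180 passed in the first and last of these settings. Other Zfp genes given in the text were not followed in this way. Zfp292 had -0.002, 0.000, -0.020 and 0.032 without mouse 1, 2, 3 or 4, -0.007 with arrays scaled to equal spread and -0.004 with 1 probe per gene. Zfp398 had 0.005 without centring, 0.030, 0.052 and -0.068 without mouse 2, 3 or 4 and 0.012 with scaled arrays. Zfp612 had 0.007 without centring, 0.149 without mouse 3, -0.105 without mouse 1 and 0.017 with scaled arrays. The cause was not tested. No paired analysis was possible because the arrays form 1 group and the control is 1 pool with no numbers of its own.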

Other observations

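Probes of the same Zfp gene did not always match. Of 6 Zfp genes with several probes that each had at least 3 values, 4 had probe means on both sides of 0. In Zfp292 (0.016 and -0.004) and Zfp654 (0.083 and -0.096) both means were close to 0 and neither probe passed. For Zfp101, 1 probe passed limma with a mean of 0.60 (adjusted p = 0.0213 over 9909 probes), with 0.40, 0.92, 0.57 and 0.51 in mice 1 to 4. The other Zfp101 probe had 0.29, -0.08, -0.56 and 0.02 (adjusted p = 0.728), and their average did not pass (mean 0.26). Zfp28 had a probe with -0.52, 0.36, -1.46 and -0.77 and a second with 0.29, 0.06, -0.14 and -0.17. In genes with values on at least 2 arrays, Zfp119a also passed limma, on 2 values.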
